A study of Mus musculus with 8 samples.

Results

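Pax2, Pax6 and Wt1 encode transcription factors of organ development. Their loci were followed here in 8 lists of H3K27me3 islands from mouse liver, as 3 genes of the 21900 protein-coding genes in the RefSeq table of assembly GRCm38.p6. The members were chosen by name and read in approximate mm9 windows of 320 kb in all. These were chr19:44800001-44940000 for Pax2, chr2:105480001-105560000 for Pax6 and chr2:104940001-105040000 for Wt1. Of the 14560 union regions made by merging the islands of 6 livers, 5 touched the windows: 1 at Pax2, 1 at Pax6 and 3 at Wt1. An island is a run of 400 bp bins listed by the authors' caller. File names state a gap setting of 2400 bp, so an island can include short stretches that were not enriched. Cover is the percent of a window under islands.

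The livers came from male CD-1 mice aged 7 weeks, an outbred stock. All mice received an injection 3 h before the liver was taken: either 3 mg/kg of TCPOBOP, an agonist of the nuclear receptor CAR, or corn oil with 1% DMSO as vehicle. There was no untreated group. Fragments of 600 to 1100 bp, digested to 500 bp, gave 3 vehicle and 3 TCPOBOP libraries from separate livers. Replicate 1 of each treatment also gave a library from fragments over 1100 bp digested to 200 bp, made from the same ChIP sample. Whole liver was used, so fewer cells that carry the mark and less mark per cell cannot be told apart. No RNA was measured, so the tissue label was not checked against marker genes, and nothing here says whether a gene was expressed.

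H3K27me3 is laid down by Polycomb repressive complex 2, and broad domains of it are known over silent genes for developmental regulators, often around promoters rich in CpG dinucleotides. Pax2 and Pax6 belong to the paired-box family, whose members bind DNA through a paired domain. Pax2 is known for its part in kidney, optic nerve and inner ear development, and Pax6 for eye, brain and endocrine pancreas. Wt1 is a zinc finger factor needed for kidney and gonad. Wt1 and Pax6 are neighbours on chromosome 2, in the stretch whose human counterpart is deleted in WAGR syndrome, while Pax2 stands alone on chromosome 19.

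In the gene order of GRCm38.p6, Pax2 was the only protein-coding gene between Hif1an and Slf2, with 5 long noncoding RNA genes beside it. Between Wt1 and Pax6 lay 2 protein-coding genes, Them7 and Rcn1, and 5 long noncoding RNA genes, among them Pax6os1 and Paupar. Elp4, a subunit gene of the Elongator complex, was the next gene after Pax6. These are names and order only, since that assembly is not the build of the islands.

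The RefSeq promoters of the members are shown because CpG-rich promoters are the known setting of Polycomb domains. Each holds 250 bases before to 50 after a transcription start of GRCm38.p6, printed 5′ to 3′ on the strand of the gene, with CG in capitals. CG reads the same on both strands, and its counts do not overlap. Of 13 symbols looked for, 9 had an entry. Wt1, Rcn1, Pax3 and Pax4 had none. For Wt1 the promoter of Wt1os, the antisense RNA next to it, is printed. Pax2 is on the plus strand of chromosome 19, Pax6 on the plus strand of chromosome 2 and Wt1os on the minus strand of chromosome 2.
Pax2, most upstream start: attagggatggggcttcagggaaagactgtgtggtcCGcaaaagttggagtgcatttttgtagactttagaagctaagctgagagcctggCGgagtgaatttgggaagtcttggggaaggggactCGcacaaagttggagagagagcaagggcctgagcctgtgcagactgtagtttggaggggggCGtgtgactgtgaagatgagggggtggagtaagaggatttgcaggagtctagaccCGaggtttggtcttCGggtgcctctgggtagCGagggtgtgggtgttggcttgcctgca
Pax2, most downstream start: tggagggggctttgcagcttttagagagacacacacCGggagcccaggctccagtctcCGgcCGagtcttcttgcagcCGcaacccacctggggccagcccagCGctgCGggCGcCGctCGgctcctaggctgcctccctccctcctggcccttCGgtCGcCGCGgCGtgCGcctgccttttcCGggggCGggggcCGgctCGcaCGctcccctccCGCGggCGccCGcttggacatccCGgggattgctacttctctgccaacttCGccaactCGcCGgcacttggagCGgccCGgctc
Pax6, upstream start: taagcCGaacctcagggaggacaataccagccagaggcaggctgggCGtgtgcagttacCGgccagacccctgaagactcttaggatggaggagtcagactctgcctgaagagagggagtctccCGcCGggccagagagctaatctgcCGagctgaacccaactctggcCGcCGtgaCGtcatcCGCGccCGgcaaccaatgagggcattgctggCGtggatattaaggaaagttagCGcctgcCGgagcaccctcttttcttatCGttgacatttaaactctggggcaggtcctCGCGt
Pax6, downstream start: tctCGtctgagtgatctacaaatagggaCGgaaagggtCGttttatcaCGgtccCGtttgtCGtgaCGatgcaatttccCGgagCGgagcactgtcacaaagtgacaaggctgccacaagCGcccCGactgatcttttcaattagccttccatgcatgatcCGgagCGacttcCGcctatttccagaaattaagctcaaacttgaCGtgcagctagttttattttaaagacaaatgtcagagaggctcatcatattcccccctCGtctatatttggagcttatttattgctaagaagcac
Wt1os: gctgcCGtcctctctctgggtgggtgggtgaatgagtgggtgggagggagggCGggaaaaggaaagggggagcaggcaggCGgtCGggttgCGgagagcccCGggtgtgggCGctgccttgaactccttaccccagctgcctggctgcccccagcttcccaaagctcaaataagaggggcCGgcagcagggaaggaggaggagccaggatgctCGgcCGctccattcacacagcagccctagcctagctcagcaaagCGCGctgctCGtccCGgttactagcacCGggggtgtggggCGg

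The most downstream Pax2 start had 30 CG in 300 bases, and 11.7% of the 32851 promoters of that length in the table had as many or more. The most upstream Pax2 start had 7, which is the median of the table, and 52.1% of promoters had as many or more. A further Pax2 start between these had 23 CG. The Pax6 starts had 18 and 16 CG, shared or exceeded by 29.7 and 33.0% of promoters, and the Wt1os start had 16. At least 1 CG was present in 94.6% of all promoters. The starts were not placed on mm9, so whether these bases themselves lay under an island was not read. They describe the genes and not the mark.

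By cover of the windows as drawn, Pax2 was the fullest of the members. Islands covered 95.4, 95.4 and 77.4% of its 140 kb window in vehicle replicates 1 to 3, and 87.1, 95.4 and 95.1% in TCPOBOP replicates 1 to 3. Vehicle replicate 3 and TCPOBOP replicate 1 were the low livers, 1 of each treatment, and the treatments overlapped. The mean was 91.0 ± 7.42% (SD, n = 6), above the mean cover of 99.8% of the 17628 tiles of 140 kb on the autosomes, whose median was 1.33%. Of those tiles, 1.40% were covered to 50% or more in all 6 livers, as the Pax2 window was.

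No part of the Pax2 window was free of islands in all 6 livers, and 102 kb of it (72.9%) lay under islands in every liver and in both libraries of longer fragments. The cover did not stop at the window. In the 140 kb before it, 98.0, 97.1 and 84.9% was covered with vehicle and 90.6, 97.1 and 85.7% with TCPOBOP, a mean of 92.2 ± 6.02% (SD, n = 6). In the 140 kb after it, 41.1, 43.7 and 35.4% was covered with vehicle and 45.1, 45.4 and 21.7% with TCPOBOP. All 6 livers left the last 74.8 kb of that flank, chr19:45005201-45080000, without an island. The union region of the 6 livers over Pax2 was chr19:44638801-45005200, 366.4 kb wide and the 15th widest of 14560.

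**Figure D1:**
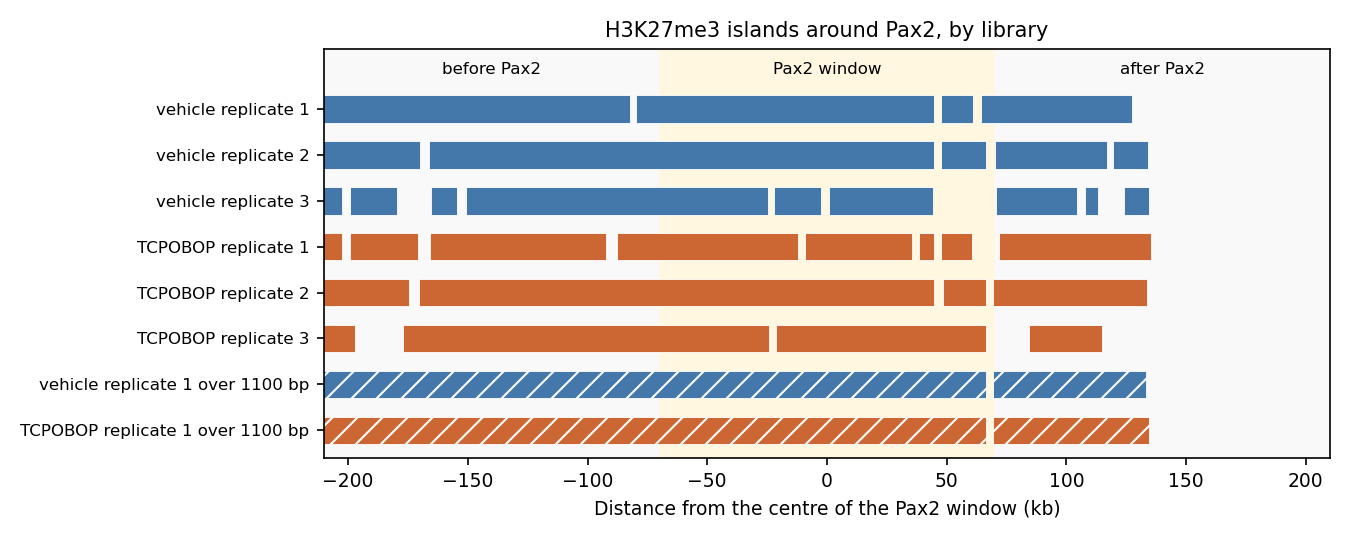
Islands of each library (bars, 1 row per library, hatched for fragments over 1100 bp) against distance in kb from the centre of the Pax2 window, which is shaded. Islands lie over most of the flank before Pax2 and of the window in all 8 libraries, with breaks. They end inside the flank after it, where the last 74.8 kb of the shaded flank holds no island of the 6 livers.

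Short breaks split the domain differently from liver to liver. With vehicle the window touched 3, 2 and 3 islands, and with TCPOBOP 4, 3 and 2. Between islands that lie in the window the breaks were 2.8 to 3.6 kb wide. The smallest gap that any list holds is 2.8 kb, the next step of 400 bp above the gap setting of 2400 bp, so a narrower break would not be listed. Most of the missing cover in the 2 low livers lay at the right end. There vehicle replicate 3 left the last 25.6 kb of the window without an island, of 31.6 kb uncovered in all, and TCPOBOP replicate 1 the last 9.6 kb of 18 kb. With islands at most 5 kb apart joined, the Pax2 domain measured 358.8, 352.4 and 209.6 kb with vehicle and 226.0, 354.0 and 243.6 kb with TCPOBOP. The widths thus fell into a wide set of 352.4 to 358.8 kb, with 2 vehicle livers and 1 TCPOBOP liver, and a narrower set of 209.6 to 243.6 kb. The 3 narrower livers also had the shortest lists, with 196, 248 and 174 Mb under islands against 340, 284 and 280 Mb, and the part of list length in the domain widths was not tested. Both libraries of longer fragments gave 351.6 and 352.0 kb. By width the joined domain ranked between 4 and 22 in the lists of the 6 livers, and by summed score between 7 and 23. The score is the authors' own value for an island relative to that library's background, so it is ranked within a list and not compared between lists.

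A right edge recurred at the same base. An island ended at 44914800 in vehicle replicates 1 and 2 and TCPOBOP replicates 1 and 2, and 1 bin earlier in vehicle replicate 3, at 44914400. Of the livers, only TCPOBOP replicate 3 ran through this point, on an island that ended at 44936400. Of 62350 distinct island ends in the 6 lists, 0.194% were shared by 4 or more livers. The end at 44936400 was shared by vehicle replicate 2, TCPOBOP replicates 2 and 3 and both libraries of longer fragments, and the latter 2 had no break at 44914800. This edge was singled out after the lists had been seen.

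The Pax6 domain was narrower and more compact. A single island crossed the 80 kb window in each liver and covered 64, 70.5 and 58.5% of it with vehicle and 63.5, 63.5 and 59.0% with TCPOBOP. Apart from vehicle replicate 2, the livers lay between 58.5 and 64%, and the treatments overlapped. The mean of 63.2 ± 4.33% (SD, n = 6) lay above 97.1% of the 30857 autosomal tiles of 80 kb. The window was drawn wider than the domain: 26% of it, all at its right end, carried no island in any liver.

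The Pax6 island measured 51.2, 63.2 and 46.8 kb with vehicle and 50.8, 50.8 and 47.2 kb with TCPOBOP. Its right end fell between 105534800 and 105539200 in the 6 livers, a range of 4.4 kb. The left end ranged over 16.4 kb, from 105473201 in vehicle replicate 2 to 105489601 in TCPOBOP replicate 3. A core of 45.2 kb, chr2:105489601-105534800, lay under the island in all 8 libraries. Beyond the right end, the 204.8 kb from 105539201 to 105744000, which hold most of Elp4, had no island in any of the 6 livers. The Elp4 window, chr2:105560001-105745000, was covered to 0% in the libraries of longer fragments as well, but those 2 lists may not be complete here.

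At Wt1, islands covered 80, 71.6 and 38.8% of the 100 kb window with vehicle and 68.4, 88.0 and 75.6% with TCPOBOP. Vehicle replicate 3 stood lowest, at a value below all other livers, and the treatments overlapped. The mean was 70.4 ± 16.9% (SD, n = 6), and 98.4% of the 24684 autosomal tiles of 100 kb had a lower mean.

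The leading island of Wt1, the one that overlaps most of the window, started between 104946001 and 104950401, a range of 4.4 kb. Its end ranged over 46 kb, from 104985600 in vehicle replicate 3 to 105031600 in TCPOBOP replicate 2. The widths were 47.2, 58.4 and 38.8 kb with vehicle and 38.8, 84.4 and 43.6 kb with TCPOBOP. Only the first part, chr2:104950401-104985600, lay under islands in all 6 livers and both libraries of longer fragments, 35.2 kb or 35.2% of the window. The near-constant start is that of the leading island alone. With islands at most 5 kb apart joined, the Wt1 domain measured 83.6, 73.2 and 38.8 kb with vehicle and 38.8, 157.6 and 127.6 kb with TCPOBOP, and 166.8 kb in both libraries of longer fragments. Joined starts ran from 104874001 in TCPOBOP replicate 2 to 104950401 in TCPOBOP replicate 1. These starts depend on the 5 kb limit, since a break of 7.2 kb parted the TCPOBOP replicate 1 domain from an island upstream. The 100 kb before the Wt1 window was covered to between 43.2 and 75.2% in the 6 livers.

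Between the Wt1 and Pax6 windows the cover was thin and changed from liver to liver. Of the 440 kb, 40.6, 27.5 and 13.1% was covered with vehicle and 14.6, 33.8 and 26.7% with TCPOBOP. The treatments overlapped, and vehicle replicate 3 and TCPOBOP replicate 1 were again the low livers. In all 6 livers together, 182.4 kb of it (41.5%) was under no island, while 67.2 kb (15.3%) was under an island in 1 liver alone. The longest stretch without an island in any liver was 62.0 kb, chr2:105088401-105150400. The 32 islands that lay wholly inside had a median width of 17.8 kb and a median score percentile of 51.2, where 100 is the highest score of a list.

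Within this interval a single stretch was common to all 6 livers, the 6.4 kb of chr2:105236801-105243200. It lies inside the approximate window of Rcn1, chr2:105220001-105245000, which encodes a calcium-binding protein of the endoplasmic reticulum. Both libraries of longer fragments covered it too. The island over it was 7.2 to 39.2 kb wide in the 6 livers and scored between percentiles 38.7 and 82.8 of its list. By score per kb it stood between percentiles 56.9 and 94.0. In the libraries of longer fragments its score percentiles were 87.5 and 95.2.

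**Figure D2:**
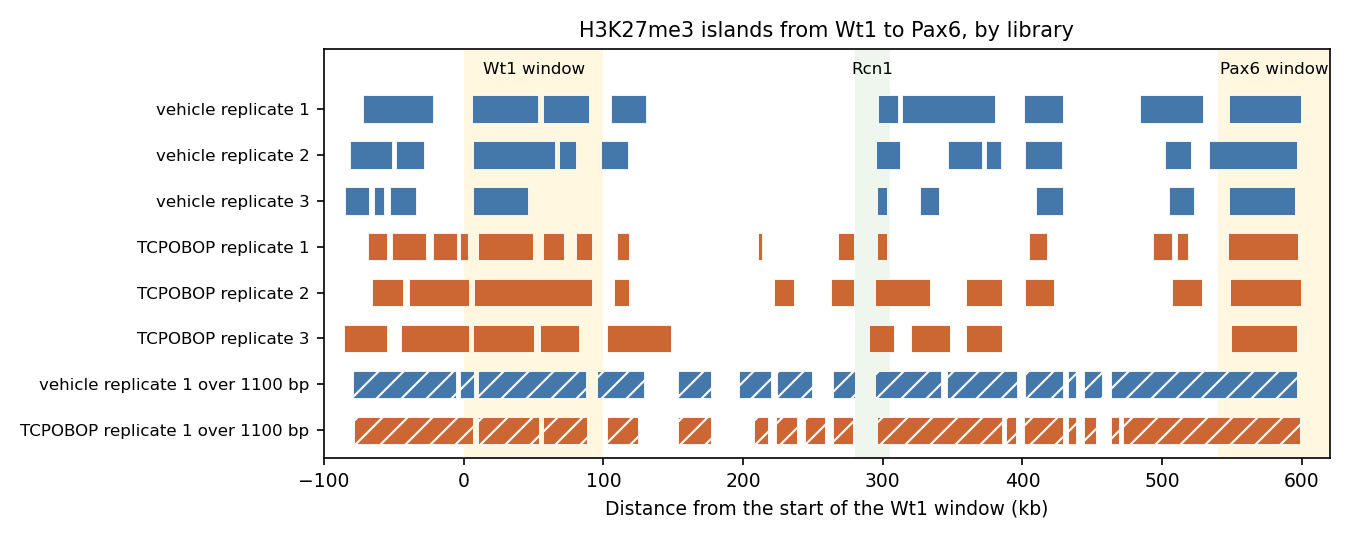
Islands of each library (bars, 1 row per library, hatched for fragments over 1100 bp) against distance in kb from the start of the Wt1 window, with the Wt1, Rcn1 and Pax6 windows shaded. The start of the leading Wt1 island and the right end of the Pax6 island lie close together across libraries. The left end of the Pax6 island varies and lies further left with longer fragments. The interval is broken in the 6 livers and fuller in the libraries of longer fragments.

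The Pax2 window was then set against the whole Wt1-Pax6 stretch of 620 kb, of which 440 kb lie between the gene windows. The stretch was covered to 50, 40.1 and 23.1% with vehicle and 29.6, 46.4 and 38.8% with TCPOBOP. Within each liver the Pax2 window was fuller, by 45.4, 55.3 and 54.3 percentage points with vehicle and by 57.5, 49.0 and 56.4 points with TCPOBOP. The mean difference was 53.0 ± 4.73 points (SD, n = 6 livers, higher in 6 of 6). A two-sided exact sign-flip permutation test gave p = 0.0313, the smallest that 6 livers allow, or 0.0417 adjusted over 4 pairs of loci. Pax2 read with both flanks, chr19:44660001-45080000, was covered to 74.0 ± 5.94% (SD, n = 6) and exceeded the stretch by 36.0 ± 7.09 points in 6 of 6 livers (exact sign-flip permutation p = 0.0313, adjusted 0.0625). This wider reading was added after the values were seen. In the libraries of longer fragments the differences were smaller. There the Pax2 window exceeded the stretch by 19.9 points with vehicle and 25.2 points with TCPOBOP. With both flanks these values were 2.98 and 8.49 points. In all 6 livers together, 14% of the stretch was covered, or 86.8 kb in 3 runs: the Wt1 core, the Rcn1 stretch and the Pax6 core.

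The gap to the single gene windows was smaller. Pax2 exceeded Pax6 by 27.8 ± 6.39 points and Wt1 by 20.6 ± 10.4 points, each in 6 of 6 livers (exact sign-flip permutation p = 0.0313 each, adjusted 0.0417). These differences depend on how the windows were drawn. The share of a window without an island in any liver was 0% at Pax2, 8.8% at Wt1 and 26% at Pax6. Pax6 and Wt1 were not told apart, with a difference of -7.23 ± 15.7 points (exact sign-flip permutation p = 0.281) and Pax6 higher in vehicle replicate 3 alone. The adjusted p of the 3 Pax2 differences went above 0.05 when windows were narrowed by 10 kb, when islands scoring under 100 were dropped, when lists were cut to equal covered length, and when any liver was left out, which makes 0.0625 the smallest p possible. With windows narrowed, Pax2 exceeded Pax6 by 15.2 points and Wt1 by 12.8 points (exact sign-flip permutation p = 0.0313 and 0.0938).

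**Figure D3:**
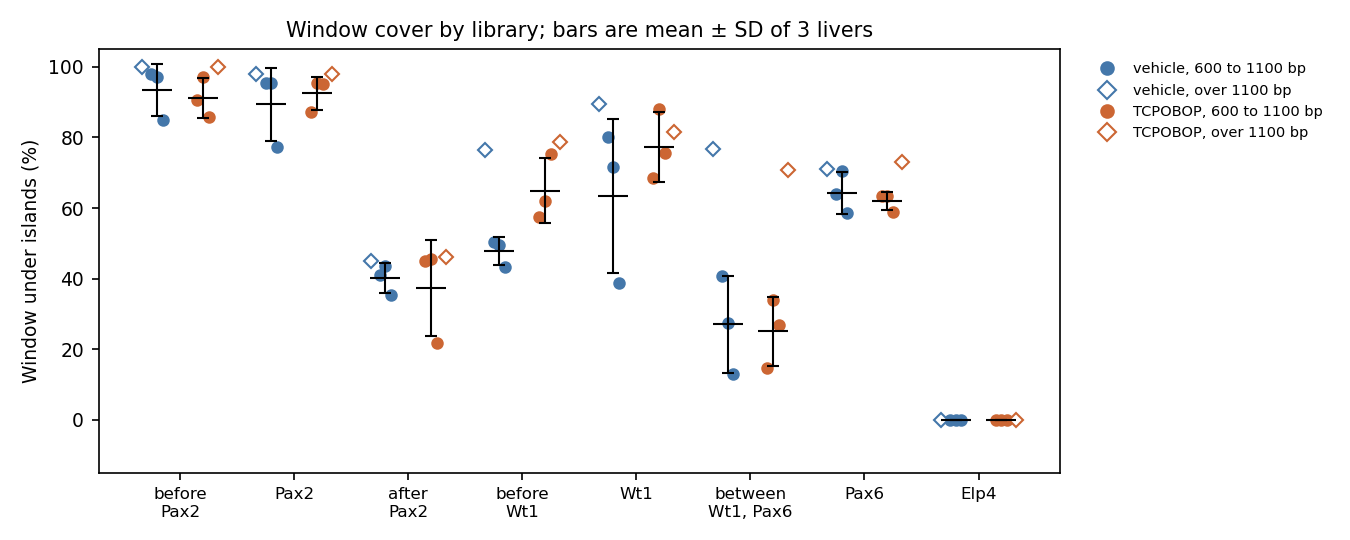
Percent of each window under islands, by library: circles are single livers, open diamonds fragments over 1100 bp, and bars the mean ± SD of 3 livers. Pax2 and the flank before it lie between 77.4 and 98.0% in the 6 livers, the interval between Wt1 and Pax6 between 13.1 and 40.6%, and Elp4 at 0%.

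The score and the score per kb ordered the domains differently. By score, the leading Pax2 island ranked 37, 10 and 13 in the vehicle lists and 56, 9 and 165 in the TCPOBOP lists, which hold 6295 to 14748 islands. The Pax6 island ranked 80, 47 and 35 with vehicle and 62, 90 and 75 with TCPOBOP. The rank of 165 belongs to TCPOBOP replicate 3, where a break of 3.2 kb split the Pax2 domain and the piece with the longest overlap was the weaker one. The other piece in that list ranked 15 by score and 726 by score per kb. The Wt1 island ranked lower, at 458, 277 and 282 with vehicle and 364, 223 and 406 with TCPOBOP.

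By score per kb the order changed. Pax6 ranked 10, 52 and 72 with vehicle and 95, 42 and 83 with TCPOBOP, while Pax2 ranked 147, 571 and 804 with vehicle and 468, 516 and 2412 with TCPOBOP. Pax6 stood above Pax2 in 6 of 6 livers, with Pax2 minus Pax6 at -9.19 ± 13.7 percentile points (SD, n = 6, exact sign-flip permutation p = 0.0313, adjusted over 2 pairs 0.0625). Without TCPOBOP replicate 3 the mean difference was -3.63. The libraries of longer fragments had the reverse order, with Pax2 at ranks 74 and 56 and Pax6 at 400 and 513 (vehicle and TCPOBOP). Wt1 ranked 212 and 39 there. Pax2 minus Wt1 was 0.305 ± 10.7 percentile points by score per kb (exact sign-flip permutation p = 0.969), and 4.42 without TCPOBOP replicate 3. By score the Pax2 and Pax6 percentiles differed by 0.0439 ± 0.767 points (exact sign-flip permutation p = 0.875). Pax2 was higher in 5 of 6 livers and lower in TCPOBOP replicate 3. Pax2 stood above Wt1 by 2.72 ± 1.01 percentile points in score, in 6 of 6 livers (exact sign-flip permutation p = 0.0313, adjusted over 2 pairs 0.0625). That difference was 5.36 without islands scoring under 100, 5.61 at equal covered length and 2.05 with windows narrowed (exact sign-flip permutation p = 0.0313, 0.0313 and 0.0938). With islands at most 5 kb apart joined and their scores summed, Pax2 stood above Pax6 by 1.14 and above Wt1 by 3.45 percentile points (exact sign-flip permutation p = 0.0313 each, adjusted 0.0313).

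**Figure D4:**
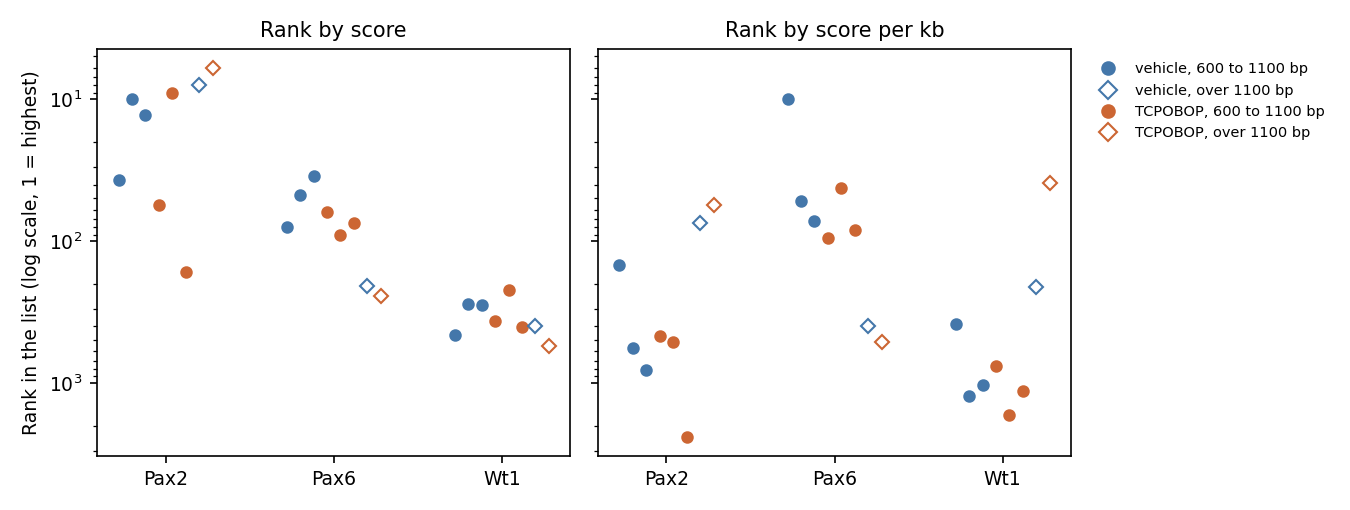
Rank of the leading island of each locus in its list, by score (left) and by score per kb (right), on a log axis with rank 1 at the top; circles are single livers and open diamonds fragments over 1100 bp. In the 6 livers Pax6 holds ranks 10 to 95 by score per kb, while Pax2 holds ranks 9 to 165 by score and 147 to 2412 by score per kb.

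The comparison of treatments asked whether TCPOBOP altered the mark at these loci within 3 h. In the 3 gene windows and the stretch the treatments overlapped. A union region and a flank at the start of Wt1 did not overlap, as given below. Vehicle livers averaged 89.4 ± 10.4% and TCPOBOP livers 92.6 ± 4.70% over the Pax2 window (SD over 3 livers in each, two-sided exact permutation p = 1). For Pax6 the vehicle mean was 64.3 ± 6.01% and the TCPOBOP mean 62.0 ± 2.60% (exact permutation p = 0.7). For Wt1 the same means were 63.5 ± 21.8% and 77.3 ± 9.91% (exact permutation p = 0.5), and the difference of 13.9 points ranged from 1.53 without vehicle replicate 3 to 22.1 without vehicle replicate 1. The Wt1-Pax6 stretch stood at 37.7 ± 13.6% against 38.3 ± 8.40% (exact permutation p = 1). All 4 adjusted p were 1, and 3 livers against 3 cannot give a p below 0.1.

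Widths and island numbers gave no separation either. The leading Pax2 island averaged 154 ± 49.4 kb in vehicle livers against 126 ± 77.4 kb after TCPOBOP (SD over 3 livers in each, exact permutation p = 0.6). The stretch touched 8, 9 and 6 islands with vehicle and 12, 10 and 8 with TCPOBOP, a difference of 2.33 (exact permutation p = 0.3). With only islands scoring at least 100 the difference turned to -1. That cut removes unequal shares of the lists, whose median scores ran from 68.1 in vehicle replicate 3 to 164 in vehicle replicate 1.

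Over all regions, limma tested the covered fraction of 8659 union regions and called 0, or 0% of them, at an adjusted p of 0.05. An unadjusted p under 0.05 was reached by 225 regions, a share below 0.05. The fit was checked on simulated data, with changed regions of small spread placed among regions whose real values were shuffled between livers. limma called no changed region there, so its absence of calls carries little information. With small noise in all regions it did call most changed regions. None of the 5 member regions had an unadjusted p under 0.05 in the fit to the real lists, and each had a limma adjusted p of 1. The region over Pax2 differed by -1.78 ± 7.81 points (limma SE) between TCPOBOP and vehicle, and the region over Pax6 by -6.26 points (SE 12). The 3 Wt1 regions were higher with TCPOBOP, by 23.2 points (SE 19.9) for chr2:104854401-104944000, 12.6 points (SE 11.3) for chr2:104946001-105031600 and 14.1 points (SE 33.2) for chr2:105038401-105088400. The first was covered to 56.2, 55.4 and 48.2% with vehicle and 67.9, 73.2 and 88.4% with TCPOBOP, without overlap. With only islands scoring at least 100 the treatments overlapped there, as TCPOBOP replicate 1 fell below vehicle replicates 1 and 2. The share of all union regions without overlap was not computed. Among autosomal tiles of 100 kb that carry any cover, 5.42% separated the treatments without overlap. This first region lies mostly in the flank before Wt1 described next, so both readings show largely the same separation. After each library was centred, the limma unadjusted p of this first region was 0.0484 and its limma adjusted p was 0.992. In that centred fit 383 of the 8659 regions had an unadjusted p under 0.05, a share below 0.05. The sign of the first region held in every setting in which it was tested. The errors are large, so the fit does not show that cover was kept.

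Of the 3 gene windows and the stretch, 0 separated the treatments without overlap. Among autosomal tiles that carry any cover, 5.41% did at 140 kb, 5.34% at 80 kb, 5.42% at 100 kb and 5.13% at 620 kb. Among all 17 windows read at and around the genes and over the other Pax genes, 1 (5.88%) did, a share near that background. It was the 100 kb before Wt1, chr2:104840001-104940000, singled out here after its values were seen. It was covered to 50.4, 49.6 and 43.2% with vehicle and 57.6, 62.0 and 75.2% with TCPOBOP (difference 17.2 points, exact permutation p = 0.1, the smallest possible). With only islands scoring at least 100 the livers overlapped, at 50.4, 49.6 and 7.6% against 38.0, 62.0 and 75.2% (exact permutation p = 0.4). Cutting all lists to the same covered length kept the treatments apart, with vehicle livers at 43.2 to 50.4% and TCPOBOP livers at 55.2 to 75.2% (difference 16.4 points, exact permutation p = 0.1).

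Libraries of longer fragments filled the loci to different degrees. At Pax2 both covered 98.0%, against 95.4 and 87.1% in the 600 to 1100 bp libraries of the same vehicle and TCPOBOP livers. At Pax6 they covered 71.0 and 73.0% against 64 and 63.5%, and at Wt1 89.6 and 81.6% against 80 and 68.4%. The interval between Wt1 and Pax6 differed most, at 76.7 and 70.8% against 40.6 and 14.6%, in the lists as deposited. With all lists cut to equal covered length the interval stood at 17.4 against 25.4% for vehicle and 35.8 against 1.73% for TCPOBOP, so the direction turned for vehicle. The longer fragments extended the Pax6 island on its left, to 105403601 with vehicle and 105412001 with TCPOBOP, while its right end was at 105536800 and 105538400. Of the cover by shorter fragments, 94.0 to 100% at the 3 windows lay under the longer ones. Those lists were also longer as a whole, at 654 and 676 Mb, so fragment size and list length cannot be told apart here.

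Other Pax genes were read in approximate mm9 windows drawn from general knowledge. Of the 7, 4 were covered to 50% or more in all 6 livers: Pax1, Pax3, Pax7 and Pax9, regulators of the skeleton, neural crest, muscle and tooth. Their family median of mean cover was 68.4%, with Pax2 at the top at 91.0%. Pax3 came closest to Pax2, with 86.8, 92.9 and 68.3% after vehicle and 66.2, 84.6 and 96.9% after TCPOBOP. Its mean absolute difference from Pax2 over the 6 livers was 8.98 points, followed by Pax1 at 16.3. Nearest to Pax6 were Pax9 at 11.8 points and Pax1 at 13.3.

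The lowest Pax windows were Pax8, a thyroid and kidney factor, and Pax4, a factor of the endocrine pancreas. Pax8 was covered to 35.8 ± 17.7% and Pax4 to 29.1 ± 23.6% (SD, n = 6 each), and Pax4 was at 0% in TCPOBOP replicates 2 and 3. Pax5, the B cell factor, ranged most widely in its window, from 41.8 to 100%. Against these, the SD over livers was 7.42 points at Pax2, 4.33 at Pax6 and 16.9 at Wt1. The family values describe windows of unequal length and were not tested against each other.

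**Figure D5:**
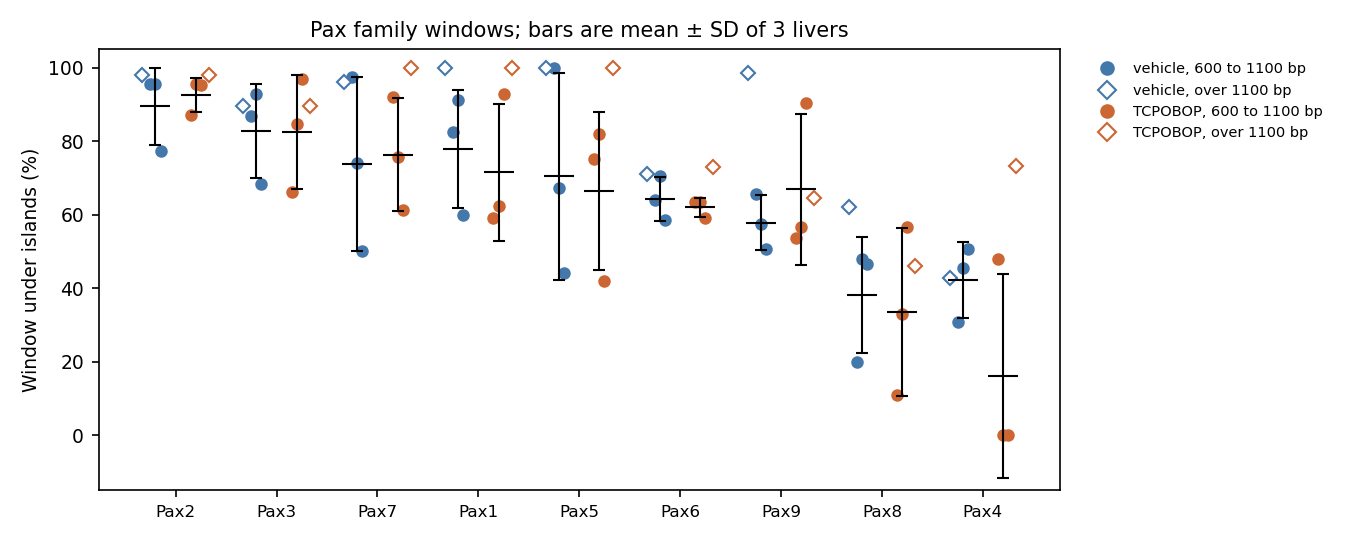
Percent of each Pax gene window under islands, by library: circles are single livers, open diamonds fragments over 1100 bp, and bars the mean ± SD of 3 livers. Pax2 lies at or above 77.4% in every library, and Pax4 reaches 0% in 2 TCPOBOP livers.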

How the data were processed

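Livers of 3 vehicle and 3 TCPOBOP mice were profiled by H3K27me3 ChIP-seq, with 2 further libraries of fragments over 1100 bp. Each deposited list gives the authors' score per island, relative to that library's background. Bowtie2 2.3.2, SICER 1.1 and mm9 appear without roles in the submitters' processing notes. Any use of input libraries was not given in the sources used here. File names state windows of 400 bp with gaps of 2400 bp, and the listed islands lie on that grid. Islands were called per library, not on pooled livers. The lists hold no read counts, so depth is unknown and no counting interval was computed.

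Coordinates are mm9 and 1-based. No mm9 annotation was used, and all windows are approximate. Cover, edges, widths and within-list ranks were computed per library. Two-sided exact permutation tests over 20 labellings compared treatments, and exact sign-flip permutation tests over 64 sign patterns compared loci within livers, with Benjamini-Hochberg adjustment within each family of tests. limma 3.58.1 (R 4.3.3, trend) tested the covered fraction of union regions covered to 50% or more in at least 2 livers. On simulated data the exact tests gave the same p as scipy. limma called none of the changed regions placed among shuffled values of these lists. Python 3.11.15 was used with scipy 1.17.1.

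Named were the 3 members, the flanks and neighbours of the windows, the other Pax genes, and the 2 Pax windows nearest to Pax2 and to Pax6 in cover. Members, lists and tests were chosen with earlier results of these data known. Joining islands across 5 kb was added after the lists had been seen. Alternatives were dropping islands scoring under 100, lists cut to 174 Mb, windows extended by 20 kb or narrowed by 10 kb, merged libraries of a ChIP sample, and each liver left out. The score cut of 100 was the same for all lists although scores are relative to each library's background. It therefore removed more of some lists than of others.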

Additional observations from a re-analysis of the deposited data

How the results depend on the processing

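Cover differences between treatments were small against the spread, and most turned sign somewhere, with the cause not tested. For Pax2, 3.14 points became -0.370 with windows extended and ranged from -2.86 to 6.14 with 1 liver left out. For Pax6, -2.33 became 1.78 with windows narrowed and ranged from -5.25 to 0.75. For Wt1, 13.9 became -1.47 with islands scoring under 100 dropped, 23.9 with lists cut to 174 Mb and 24.7 with windows extended, and ranged from 1.53 to 22.1. For the stretch, 0.516 became -6.99 with weak islands dropped and -2.60 with lists cut, and ranged from -6.81 to 6.65. Leading island widths turned from -27.6 kb to a range of -72.1 to 0.933 at Pax2, from -4.13 kb to -7.6 to 0.6 at Pax6, and from 7.47 kb to -6.0 with ChIP samples merged or 42.8 with islands joined and a range of -6.93 to 15.9 at Wt1. The number of islands in the stretch, 2.33 higher with TCPOBOP, became -1.0 without weak islands and -0.333 with lists cut.

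Pax2 minus the stretch kept its size at 52.7 without weak islands, 53.7 with lists cut and 55.6 with windows narrowed, and 52.1 to 54.5 with 1 liver left out, and was 36.0 with both Pax2 flanks included, but its adjusted p rose to 0.0625 or more under each of these. Pax2 minus Pax6 was 20.4, 20.4 and 15.2, and 26.2 to 29.6. Pax2 minus Wt1 was 24.7, 22.9 and 12.8, and 17.0 to 23.2, and the adjusted p of both also rose to 0.0625 or more. Pax6 minus Wt1, -7.23, became 4.3 without weak islands and 2.57 with lists cut. In score percentile, Pax2 minus Pax6 became -0.632 with windows narrowed and -9.19 by score per kb, ranged from -0.106 to 0.339 with 1 liver left out, and was 1.14 with islands joined, while Pax2 minus Wt1 was 3.45 with islands joined, 2.05 with windows narrowed and 0.305 by score per kb, where 1 liver left out gave -1.90 to 4.42.

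Longer minus shorter fragments at Pax2 moved from 2.57 to 12 for vehicle, both without weak islands and with lists cut, and from 10.9 to 20 under both for TCPOBOP. At Pax6 they were 13.7 and 23.0 with windows extended, and -4.0 and 1.33 with windows narrowed. At Wt1 they were 30.4 with lists cut for vehicle, and 42.8 without weak islands and -10.4 with lists cut for TCPOBOP. For the stretch they were 0.129 with lists cut for vehicle, and 53.5 without weak islands and 23.7 with lists cut for TCPOBOP, and for the interval alone -8.0 and 34.1 with lists cut and 63.9 without weak islands for TCPOBOP. limma called 0 regions except on the arcsine scale, where it called 1, away from the members. Its differences for member regions turned sign at Pax2 (3.68 without weak islands, 7.29 after centring, -7.02 to 2.92 with 1 liver left out), at Pax6 (2.81 after centring, -11.5 to 1.15) and at Wt1 (-4.05 without weak islands, -1.48 to 22.8, and -15.8 to 27.5 for the region at its end). The Wt1 region from 104854401 kept its sign, at 17.5 to 27.5 with 1 liver left out and 32.3 after centring.

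Same-numbered livers had correlations of -0.0539, -0.0163 and 0.0390 in their deviations, so the numbers were not taken as pairs. With a replicate block the smallest exact p was 0.25, for the number of islands in the stretch, limma called 0 regions, and no other call changed.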
